A study of Mus musculus with 3 samples.

Results

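The TNF superfamily genes described here are Tnf, Lta, Ltb and the protein-coding mouse genes whose RefSeq symbol begins with Tnfsf or Tnfrsf followed by a number. There were 34 of them among 21887 protein-coding genes, namely 14 ligand genes and 20 receptor genes. The rule uses symbols alone, and the family was picked for description with earlier results of these data known. The study used ChIP-seq to locate PU.1 in i660BM cells, a C57BL/6 pro-B cell line with a doxycycline-inducible PU.1 system, grown in medium containing IL-7. The 2 PU.1 libraries, named replicate 2 and replicate 3 in their titles, came from cells given doxycycline at 70 ng/ml over 24 h and used the polyclonal rabbit antibody T-21 to PU.1. The third sample, input DNA of pro-B cells, carries the label none for both treatment and antibody. All results below are from the induced cells of 1 line, and no peak list of uninduced cells was analysed here, so occupancy that depends on induction and occupancy that does not cannot be told apart.

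TNF superfamily ligands are membrane-bound or secreted proteins, most of them trimers, and they cluster receptors that carry cysteine-rich repeats outside the cell. Receptors with a cytoplasmic death domain can start apoptosis, and most others recruit TRAF adaptors that lead to NF-kB. In B cells the family is best known for BAFF (Tnfsf13b) and APRIL (Tnfsf13) and for their receptors. These receptors are BAFF-R (Tnfrsf13c), TACI (Tnfrsf13b) and BCMA (Tnfrsf17), which act in mature B cells and plasma cells. PU.1, encoded by Spi1, is an ETS factor of B cells and myeloid cells and binds purine-rich DNA around the core GGAA. Occupancy says nothing here of expression, which was not measured.

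Replicate 2 had 74494 peaks and replicate 3 had 6169, and a merged list for the series held 49385 intervals. The score of a peak, given by the authors' peak caller, was 70.0 at the lowest in both lists. It varies with library depth, so it ranks peaks within a list and is not compared between lists. In replicate 2, 2656 peaks stood at or above 3100, where ranks are tied or uncertain. The number of reads behind each library is unknown here. The labels do not state whether the libraries are from separate cultures, so differences between them may be technical.

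A gene was counted as carrying a peak when 1 bp or more of the peak fell within its span or the 5 kb on either side. Of the 34 TNF superfamily genes, 31 carried a replicate 2 peak (91.2%), against 70.7% of all protein-coding genes. A merged interval lay at 30 of the 34 genes (88.2%), against 62.6% of all genes. A replicate 3 peak lay at 5 of the 34 genes (14.7%), against 15.1% of all genes. The same 5 genes carried a shared region, defined as overlapping peaks of both libraries joined into 1 interval, against 15.3% of all genes. The replicate 3 and shared counts are thus near the background, while the counts from the longer lists stand above it. These shares are descriptions of 1 cell line and were not tested, because the members are fixed genes and not replicates.

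**Figure D1:**
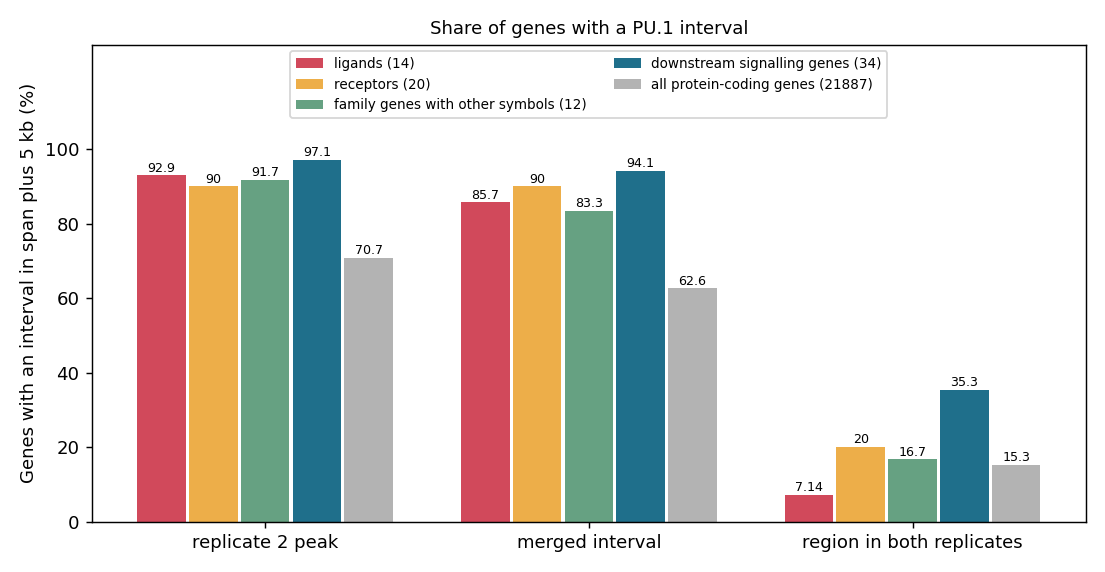
Share of genes (%, y axis) with a replicate 2 peak, a merged interval or a region in both replicates within the span plus 5 kb, as bars for TNF ligand genes, receptor genes, family genes with other symbols, downstream signalling genes and all protein-coding genes. In replicate 2 the ligand and receptor bars stand at 92.9% and 90.0%, above 70.7% for all genes, while for shared regions they stand at 7.14% and 20.0%, on either side of 15.3%.

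Spans of the members were no longer than usual, with a median of 15.9 kb, against 17.2 kb for all protein-coding genes. Counting only the 5 kb around each gene end, 30 members carried a replicate 2 peak (88.2%), against 61.9% of all genes. By the same measure, 4 members carried a shared region (11.8%), against 9.22% of all genes. Members held a median of 2 replicate 2 peaks per window and at most 6, while the median over all genes was 1. A replicate 2 peak with a score of 1000 or more lay at 21 members (61.8%), against 29.4% of all genes.

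The receptors of BAFF and APRIL included 2 of the 5 genes with a shared region. This is 2 of the 3 genes of the group (66.7%), against 15.3% of all genes. With gene ends alone, 1 of the 3 had a shared region (33.3%), against 9.22% of all genes. The Tnfrsf13c region fell outside windows with no flank or with 1 kb, and 3 genes are few. Tnfrsf13b, which encodes TACI, carried its peaks deep inside the gene on chromosome 11, at 61141704 to 61143081 in replicate 2 (score 3100) and at 61141994 to 61142974 in replicate 3 (score 260). The centre of the replicate 2 peak lay 16.11 kb from the gene start, taken here and below as the upstream end of the annotated span. A weaker replicate 2 peak of score 312 followed 17.36 kb from the start, and peaks of 125 and 133 lay upstream of the gene. Those 3 weaker peaks had no partner in replicate 3.

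Tnfrsf13c, which encodes BAFF-R, the receptor that mature B cells need for survival signals from BAFF, carried a single peak in each library. It lay on chromosome 15 downstream of the gene, at 82218383 to 82219593 in replicate 2 (score 3100) and at 82218523 to 82219575 in replicate 3 (score 426). The gap to the nearer end of the span was 2.15 kb in replicate 2, and no other protein-coding gene came within 5 kb of the peak. Among the 3309 protein-coding genes with a replicate 3 peak, Tnfrsf13c ranked 306 and Tnfrsf13b ranked 783 by their highest replicate 3 score. Tnfrsf17, which encodes BCMA, the receptor of plasma cells, had 1 replicate 2 peak of score 112, located 2.34 kb beyond the gene and within 5 kb of Snx29, and no replicate 3 peak. Its best score was the lowest among the 31 members with a replicate 2 peak. The ligand genes of this axis carried little. Tnfsf13b had no peak in any list, the nearest replicate 2 peak (score 607) being 27.9 kb away, and Tnfsf13 had replicate 2 peaks of score 170 on both sides and none in replicate 3.

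**Figure D2:**
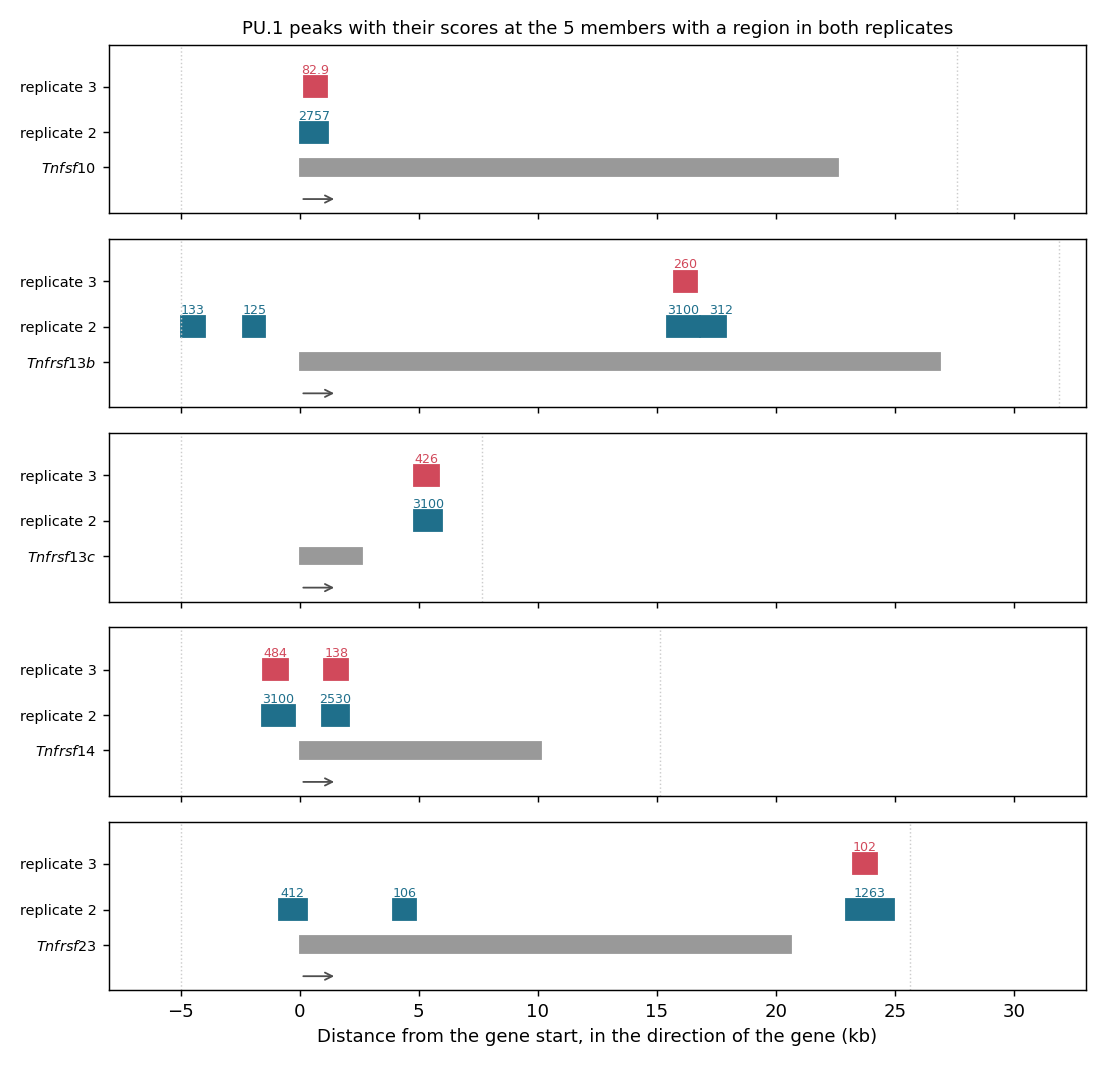
Peaks of replicate 2 and replicate 3 at the 5 members with a region in both replicates, against the distance from the gene start in the direction of the gene (kb, x axis); grey bars are gene spans, arrows give the direction, dotted lines mark 5 kb beyond the span, and numbers are peak scores. The shared regions lie next to the start in Tnfsf10 and Tnfrsf14, inside the gene in Tnfrsf13b and downstream of it in Tnfrsf13c and Tnfrsf23.

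Among the costimulatory receptors, Tnfrsf14 carried 2 shared regions, and no other member had more than 1. Tnfrsf14 encodes HVEM, the receptor of LIGHT (Tnfsf14) and a partner of the inhibitory receptor BTLA. The region upstream of the start lay on chromosome 4, at 154928835 to 154930210 in replicate 2 (score 3100) and at 154929114 to 154930175 in replicate 3 (score 484). The region inside the gene, near its start, spanned 154926552 to 154927691 in replicate 2 (score 2530) and 154926575 to 154927586 in replicate 3 (score 138). The upstream region was higher than the inner one in both libraries. Its replicate 3 score was also the highest of any member and placed Tnfrsf14 at rank 249 of the 3309 genes with a replicate 3 peak. The promoter table starts Tnfrsf14 inside its annotated span, so its promoter window (154928028 to 154928327) overlapped neither region.

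Of the 5 costimulatory receptor genes, Tnfrsf14 alone carried a replicate 3 peak (20.0%), against 15.1% of all genes. Tnfrsf18, which encodes GITR, a receptor of regulatory T cells, carried a replicate 2 peak across its start (score 1105) and others of 768 and 888 downstream, near Ttll10. Its neighbour Tnfrsf4, the gene of OX40, carried no peak in any list, and the peak across the Tnfrsf18 start was the nearest one, 8.67 kb from Tnfrsf4. Tnfrsf8, which encodes CD30, had its best replicate 2 peak inside the gene (score 1217), as did Tnfrsf9, which encodes CD137, an activation receptor of T cells (score 1012). The Tnfrsf18 promoter is shown because the peak of score 1105 covered all of it. Promoters here are RefSeq sequence of GRCm38.p6 from 250 bases before to 50 bases after an annotated start, written 5′ to 3′ on the gene's strand. In each of them, capitals mark GGAA or its reverse complement TTCC. The Tnfrsf18 promoter, at chr4:156026072-156026371 on the plus strand, held 3 such matches and 1 match to the longer form GAGGAA, read as TTCCTC.
Tnfrsf18: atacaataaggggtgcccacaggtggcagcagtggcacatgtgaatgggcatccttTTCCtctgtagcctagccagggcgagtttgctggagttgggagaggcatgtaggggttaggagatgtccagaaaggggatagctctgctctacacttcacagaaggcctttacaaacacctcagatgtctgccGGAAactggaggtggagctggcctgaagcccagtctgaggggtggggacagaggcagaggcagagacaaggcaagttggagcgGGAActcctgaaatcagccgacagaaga

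Of the 4 death-domain receptor genes among the members, 4 carried a replicate 2 peak, against 70.7% of all protein-coding genes. A replicate 3 peak lay at 0 of the 4, against 15.1% of all genes. Death-domain receptor genes with other symbols are not counted here. Among them, Edar had a replicate 3 peak (score 251), and Fas and Ngfr had none. Tnfrsf21, which encodes DR6, had 5 replicate 2 peaks, with scores of 94.0 at the start and 1199, 1334, 455 and 1967 at increasing distance inside its 72.6 kb span. Tnfrsf1a, the gene of TNF receptor type I, had a peak of 1669 downstream, 4.49 kb from the span and within 5 kb of Plekhg6, and a peak of 323 upstream, within 5 kb of Scnn1a. The peak assigned to Tnfrsf1a by the 5 kb rule could therefore equally be counted to Plekhg6. Tnfrsf10b, the mouse TRAIL receptor that carries a death domain, had its best replicate 2 peak inside the gene (score 1598) among 5 peaks. Tnfrsf25, which encodes DR3, had 1 peak of 490, located 3.90 kb downstream of the gene and within 5 kb of Espn.

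Of the decoy and secreted receptors, Tnfrsf23 carried a shared region. Tnfrsf22 and Tnfrsf23 encode mouse decoy receptors for TRAIL that lack a death domain, and they lie side by side with Tnfrsf26 on chromosome 7. The Tnfrsf23 region lay downstream of the gene, at 143661480 to 143663514 in replicate 2 (score 1263) and at 143662203 to 143663197 in replicate 3 (score 102). Its replicate 3 peak lay 12.5 kb from Tnfrsf22, outside the window of that gene. Tnfrsf22 had a best replicate 2 score of 1427 inside the gene and Tnfrsf26 a best score of 1196 across an end of its span, neither with a replicate 3 peak. These 3 genes are related copies, and the sources used here do not state how reads matching several places were treated. Tnfrsf11b, which encodes osteoprotegerin, the secreted decoy receptor of RANKL, had no peak in any list, and its nearest replicate 2 peak (score 495) lay 15.8 kb away.

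Of the 5 remaining receptor genes, 0 had a replicate 3 peak, against 15.1% of all genes. They were led by Tnfrsf1b, which encodes TNF receptor type II. It had 6 replicate 2 peaks, the most of any member, and those of 2256 and 1781 lay 13.03 kb and 5.63 kb from its start, inside the gene. Tnfrsf11a, which encodes the RANKL receptor RANK, had a best score of 840 and Tnfrsf12a, the gene of the TWEAK receptor Fn14, had 232. Tnfrsf19, which encodes TROY, had a replicate 2 peak of 1075 immediately upstream of its start. That peak covered 158 of the 300 bases of the Tnfrsf19 promoter entry at chr14:61046806-61047105 (minus strand), which is shown for that reason. Another Tnfrsf19 entry, at chr14:61037938-61038237, held a match to GAGGAA or TTCCTC and is not shown. The entry shown held 2 matches to GGAA or TTCC and none to GAGGAA in either direction.
Tnfrsf19: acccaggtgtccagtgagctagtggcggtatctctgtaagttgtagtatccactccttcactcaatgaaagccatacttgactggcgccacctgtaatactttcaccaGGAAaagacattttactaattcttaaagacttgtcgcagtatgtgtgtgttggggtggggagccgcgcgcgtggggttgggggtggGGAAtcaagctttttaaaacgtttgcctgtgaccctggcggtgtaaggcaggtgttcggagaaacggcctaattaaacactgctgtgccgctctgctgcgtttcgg

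Among the 14 ligand genes, 13 carried a replicate 2 peak (92.9%), against 70.7% of all protein-coding genes. A shared region lay at 1 of them, Tnfsf10 (7.14%), against 15.3% of all genes. Tnfsf10 encodes TRAIL, a ligand that can induce apoptosis through death receptors. Its peak began just after the start on chromosome 3, at 27317111 to 27318266 in replicate 2 (score 2757) and 27317266 to 27318204 in replicate 3 (score 82.9). That replicate 3 score stood just above the minimum of the list, 70.0, and the gene ranked 2861 of the 3309 genes with a replicate 3 peak. The Tnfsf10 promoter (chr3:27316827-27317126, plus strand) lay almost wholly outside the peak, with 16 of its 300 bases inside the replicate 2 peak, and held 2 matches to GGAA or TTCC and none to GAGGAA in either direction.
Tnfsf10: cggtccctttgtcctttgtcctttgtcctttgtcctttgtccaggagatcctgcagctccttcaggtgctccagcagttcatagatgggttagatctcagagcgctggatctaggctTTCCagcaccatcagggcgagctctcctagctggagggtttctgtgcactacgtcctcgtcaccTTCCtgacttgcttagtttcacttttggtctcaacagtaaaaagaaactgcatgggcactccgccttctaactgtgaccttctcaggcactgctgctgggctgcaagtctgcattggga

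Several ligand genes had high replicate 2 scores and no replicate 3 peak. Tnfsf9, the ligand of CD137, had a replicate 2 peak of 2714 across an end of its span (chromosome 17, 57104023 to 57106516). Tnfsf15, which encodes the DR3 ligand TL1A, had a single replicate 2 peak of 1698 across its start (chromosome 4, 63744951 to 63746605). Tnfsf18, the GITR ligand gene, also had a single peak, of 1301, inside the gene. The peak across the Tnfsf15 start covered the whole promoter (chr4:63745010-63745309, minus strand), which held 2 matches to GGAA or TTCC and none to GAGGAA in either direction.
Tnfsf15: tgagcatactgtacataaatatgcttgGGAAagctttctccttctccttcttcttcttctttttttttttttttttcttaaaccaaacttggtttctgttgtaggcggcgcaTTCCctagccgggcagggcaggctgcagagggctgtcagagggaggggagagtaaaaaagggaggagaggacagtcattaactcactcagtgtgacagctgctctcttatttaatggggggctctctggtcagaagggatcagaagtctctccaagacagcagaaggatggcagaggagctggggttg

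Tnf, Lta and Ltb encode TNF and both lymphotoxin chains and lie together on chromosome 17. Across them replicate 2 had 6 peaks and replicate 3 had none, the nearest replicate 3 peak being 13.0 kb from Lta with a score of 198. The highest, with a score of 2454, lay upstream of Ltb at 35188923 to 35190898, 3.61 kb from the gene and within 5 kb of Lst1 as well. A wide peak of 1334 ran across the start of Tnf at 35200145 to 35203034, and it is the best peak of Lta too. It also lay 3.84 kb from Ltb, so it fell in the windows of all 3 genes. A peak of 610 crossed the start of Lta, and those of 104 and 302 lay across the start and downstream of Ltb. The genes therefore do not provide independent counts: of the 79 replicate 2 peaks at TNF superfamily genes, 5 fell in more than 1 member's window, and 4 of those 5 are in this cluster.

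The Tnf promoter is shown because the peak across the start covered all 300 bases of it (chr17:35201958-35202257, minus strand). It held 7 matches to GGAA or TTCC, the most among the 5 promoters shown, of which 6 read TTCC on the gene's strand, and 1 match to GAGGAA, read as TTCCTC.
Tnf: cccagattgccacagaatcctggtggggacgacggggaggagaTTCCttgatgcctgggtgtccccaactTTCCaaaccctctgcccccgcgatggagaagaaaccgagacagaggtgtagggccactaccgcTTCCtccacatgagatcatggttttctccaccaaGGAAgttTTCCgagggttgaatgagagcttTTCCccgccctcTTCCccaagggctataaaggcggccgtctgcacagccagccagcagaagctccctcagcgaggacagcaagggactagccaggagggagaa

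**Figure D3:**
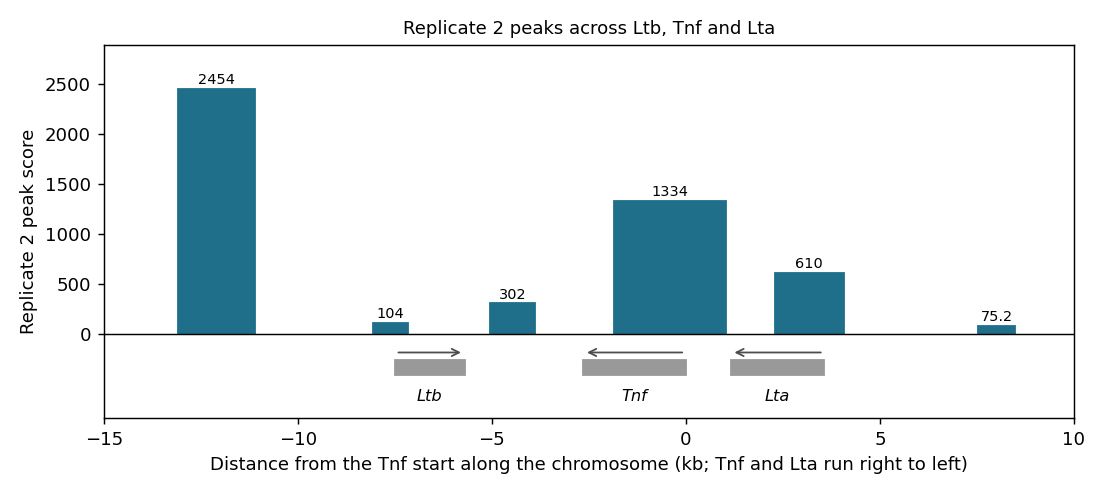
Replicate 2 peaks across Ltb, Tnf and Lta, with peak score on the y axis and distance from the Tnf start along the chromosome on the x axis (kb); bars span each peak, grey boxes are genes and arrows give their direction. The bar of 2454 stands upstream of Ltb and the bar of 1334 covers the Tnf start.

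The lower ligand genes were Tnfsf8 (CD30 ligand, best replicate 2 score 751), Tnfsf11 (RANKL, 631), Tnfsf4 (OX40 ligand, 461), Tnfsf14 (LIGHT, 259), and Tnfsf13 and Tnfsf12 (TWEAK), which share their best peak of 170. Tnfsf12 was the 1 member with a replicate 2 peak and no merged interval. Only some of the receptor and ligand pairs that bind each other are compared here. Tnfrsf14 had shared regions, and Tnfsf14, a ligand gene of it, had a best replicate 2 score of 259. For TRAIL, the ligand gene Tnfsf10 and the decoy receptor gene Tnfrsf23 had a shared region, while the decoy receptor gene Tnfrsf22 and the death-domain receptor gene Tnfrsf10b had none. The Tnfsf10 region was not shared with scores of at least 100, and the Tnfrsf23 region was not shared when 50% of both peaks had to overlap.

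**Figure D4:**
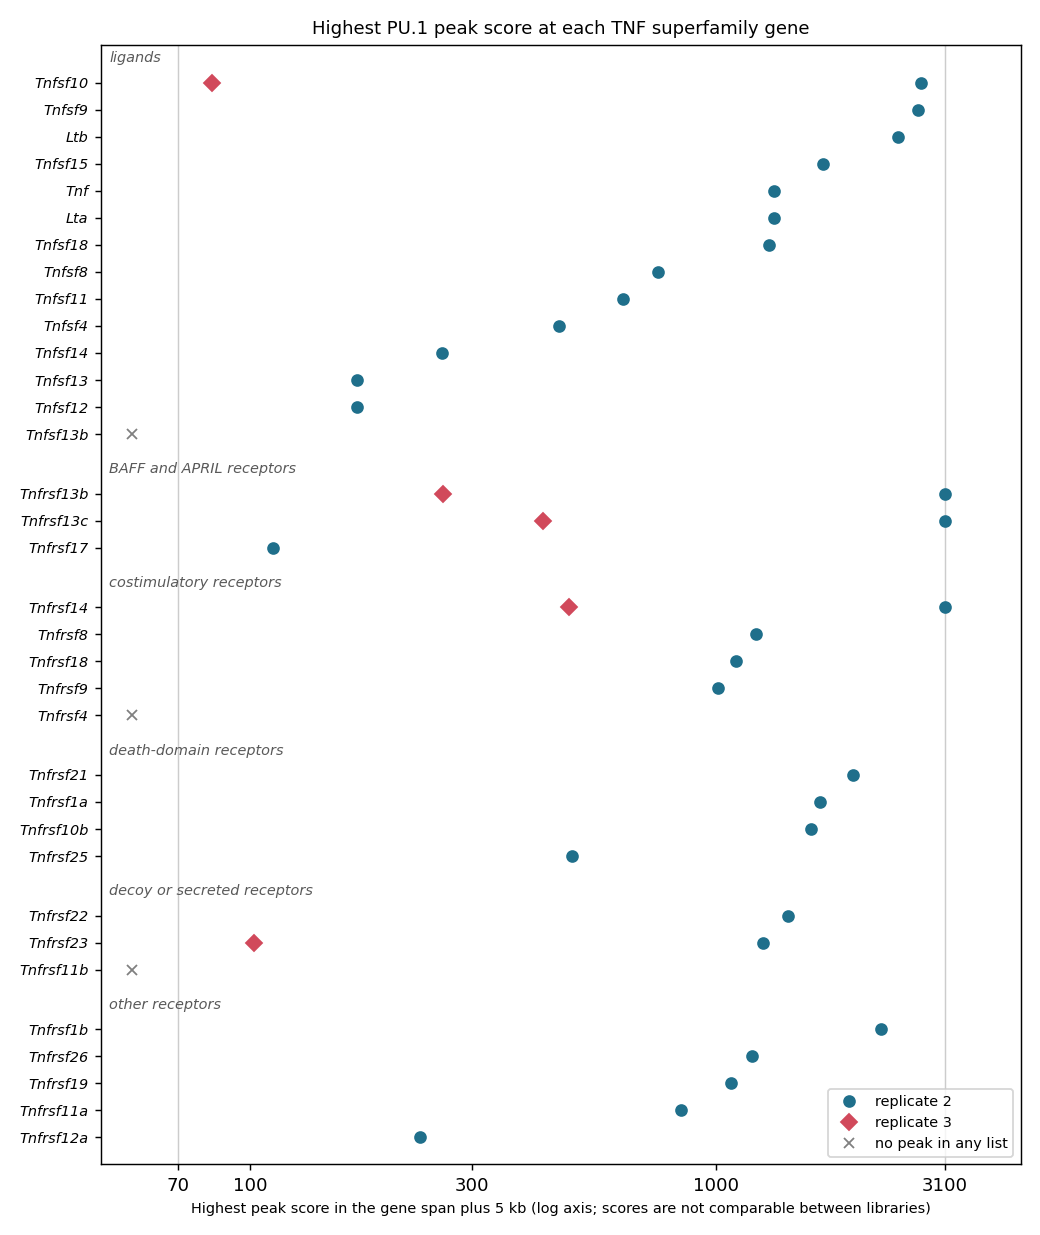
Highest peak score at each of the 34 TNF superfamily genes (x axis, log scale), by role, for replicate 2 (circles) and replicate 3 (diamonds); crosses mark genes with no peak in any list, and grey lines mark scores of 70 and 3100. Tnfrsf13b, Tnfrsf13c and Tnfrsf14 are the 3 genes that reach 3100 in replicate 2, and each has a replicate 3 diamond, from 260 to 484.

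The longer list also shows where the peaks lay relative to the genes. The direction of 27 members was known from the RefSeq promoter table, and 25 of these carried replicate 2 peaks, in 69 pairs of a gene and a peak. Of these pairs, 29 had the peak inside the gene, 17 downstream, 14 upstream and 9 across the start. The genes with a peak across the start were Lta, Ltb, Tnf, Tnfsf8, Tnfsf11, Tnfsf15, Tnfrsf18, Tnfrsf21 and Tnfrsf23. No shared region crossed the start of its gene. Of the 79 peaks, 15 also came within 5 kb of a protein-coding gene outside the family. All 6 shared regions lay more than 5 kb from any such gene, but 6 is a small number. These counts and the positions above were not tested or set beside those of all genes.

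Within replicate 2, peaks at TNF superfamily genes had a median score of 437, against 232 for the whole list. The whole list is not limited to gene windows, and peaks in the windows of other genes were not set apart for comparison. The 3 member peaks at 3100 all had a replicate 3 peak, as did 97.1% of all replicate 2 peaks at or above 3100. Of the 5 member peaks from 2000 to under 3100, 2 had one, against 71.1% of all peaks in that range. The 3 without were those of Tnfsf9, Ltb and Tnfrsf1b. From 1000 to under 2000, 1 of 16 had one, namely that of Tnfrsf23, against 17.5% of all peaks. Below 1000, 0 of 55 member peaks had one, against 0.603% of all peaks from 500 to under 1000 and 0.00775% of those under 500. These counts are small and were not tested. The merged list held 61 of the 79 peaks, the lowest with a replicate 2 score of 94.0. The 18 left out scored 191 or less, so the score ranges overlap. The same share over the whole replicate 2 list was not counted.

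**Figure D5:**
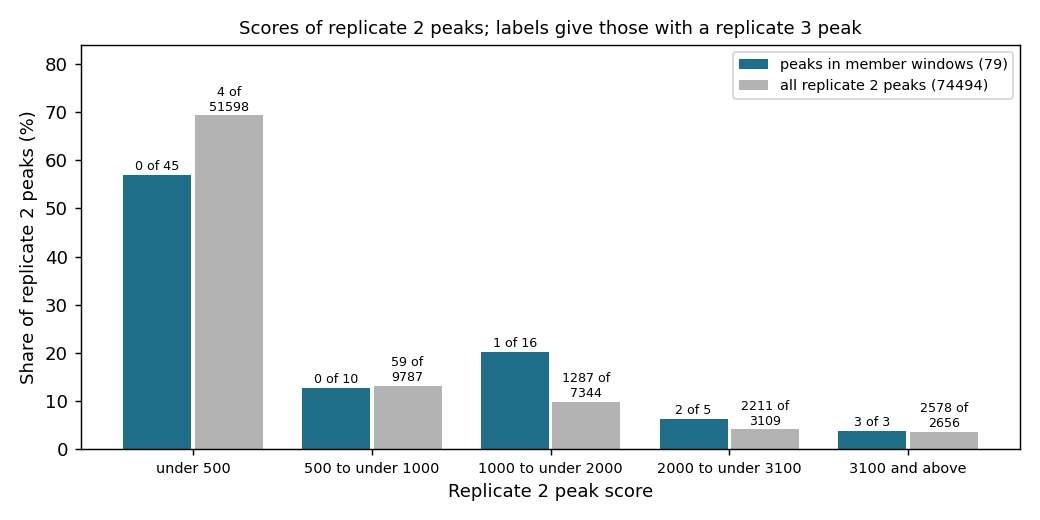
Share of replicate 2 peaks (%, y axis) by replicate 2 score (x axis) for the 79 peaks at TNF superfamily genes and for all 74494 peaks; numbers above bars give how many of the peaks had a replicate 3 peak. The member bar is higher than that of all peaks from 1000 to under 2000, at 20.3% against 9.86%, and lower under 500, at 57.0% against 69.3%. The set of all peaks is not limited to gene windows.

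With no flank, 25 members carried a replicate 2 peak (73.5%), against 61.4% of all protein-coding genes. A shared region then lay at 3 members (8.82%), against 12.0% of all genes, those of Tnfrsf13c and Tnfrsf23 being lost. Tnfrsf25, Tnfrsf1a, Tnfrsf13c, Tnfrsf17, Tnfsf13 and Tnfsf14 carried replicate 2 peaks in the flanks alone. Those of Tnfrsf25 and Tnfrsf1a lay at 3.90 kb and at 3.46 and 4.49 kb. The members just outside the 5 kb limit were Tnfrsf4, with a replicate 2 peak at 8.67 kb, and, for replicate 3, Tnfrsf22 at 12.5 kb and Lta at 13.0 kb. Just inside it, Tnfsf4 had a replicate 2 peak at 4.58 kb besides its stronger peak inside the gene, and the shared regions farthest from their genes were those of Tnfrsf13c and Tnfrsf23, at 2.15 and 2.29 kb. Over the 29 members without a replicate 3 peak, the nearest one lay 12.5 to 293 kb away, with a median of 53.3 kb.

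The motif GGAA or TTCC occurred in all 31 promoter entries of the 27 members in the table, and in 95.7% of 21263 entries of all protein-coding genes. The form GAGGAA or TTCCTC occurred in 11 of the 31 (35.5%), against 27.4% of all entries. GAGGAAGT or ACTTCCTC, which includes both shorter forms, occurred in 1 of the 31, that of Tnfsf18, against 3.13% of all entries. The Tnfsf18 promoter itself lay outside the gene's peak. Matches describe the letters in these windows and are not sites of binding.

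Of 12 family genes with other symbols, 11 carried a replicate 2 peak (91.7%), against 70.7% of all genes, and 3 carried one with a score of 1000 or more (25.0%), against 29.4%. A shared region lay at 2 of them (16.7%), against 15.3% of all genes, and at 0 of the 12 when only the 5 kb around gene ends were counted, against 9.22%. Those with a shared region were Relt, an orphan receptor gene (3100 in replicate 2 and 251 in replicate 3), and Edar, the ectodysplasin receptor gene (2336 and 251). Cd40, a costimulatory receptor of B cells, and Fas, a death receptor, had best replicate 2 scores of 336 and 152 and no replicate 3 peak. Genes that signal downstream of the receptors carried shared regions at 12 of 34 (35.3%), against 15.3% of all genes. The median span of the 34 was 34.0 kb, against 17.2 kb for all genes, so their windows were wider. Counting only the 5 kb around gene ends, 8 of the 34 had one (23.5%), against 9.22% of all genes. With scores of at least 100 in both libraries, 7 of the 34 had one (20.6%), against 11.4% of all genes. Map3k7, the kinase TAK1, had scores of 3100 and 335, Ikbkb, an IkB kinase, 2738 and 227, and Tnfaip3, which encodes the NF-kB inhibitor A20, 3100 and 224, each in replicate 2 and replicate 3. Otulin, a deubiquitinase, had 183 in replicate 3, and the adaptors Traf4, Traf3ip2 and Traf1 had 143, 142 and 117. The other 5, Map3k14, Map3k5, Birc3, Mlkl and Casp8, scored 70.4 to 98.7 in replicate 3.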

How the data were processed

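PU.1 ChIP-seq of i660BM pro-B cells was analysed from 2 peak lists, 1 per library, and a merged list. The submitters' processing notes name Trim Galore, Bowtie and MACS 1.4.1 and the build mm10. The sources used here do not state whether the input served as control or how the merged list was made. The deposited score of a peak was taken to be that MACS version's own measure, the log10 p-value multiplied by minus 10. It carries no normalization between libraries. It is 0 throughout the merged list, which was used for positions alone.

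Genes came from a RefSeq table of GRCm38.p6, the build of mm10. Of 21900 protein-coding genes, 13 not placed on chromosomes 1 to 19, X or Y were left out. All coordinates are 1-based. The members and gene lists were chosen with earlier results of these data known. Named are all members with a shared region, the 10 further members with the highest replicate 2 score, a listed set of B cell and TNF genes, and members with no peak. Other members are given by their best score. Promoters shown are those overlapped by a shared region or by a replicate 2 peak of score 1000 or more. No condition could be tested, so shares are set beside those of all protein-coding genes. The overlap steps, run in Python 3.11.15 with pandas 2.3.3, were tested on simulated data. Alternatives were other windows, gene ends alone, a score of at least 100, overlap of 50% and either library alone.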

Additional observations from a re-analysis of the deposited data

How the results depend on the processing

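Counts from replicate 2 and the merged list stayed within 1.5 times under the alternatives tried for them. Counts resting on replicate 3 are small and moved more. With no flank, or with 1 kb, replicate 3 peaks lay at 3 members (8.82%), against 11.7% and 12.4% of all genes. Shared regions then lay at 3 members (8.82%) and at 2 receptor genes (10.0%), against 12.0% and 12.6% of all genes. The regions of Tnfrsf13c and Tnfrsf23 lie outside these windows. With a score of at least 100, shared regions lay at 0 of the 14 ligand genes, since Tnfsf10 scored 82.9 in replicate 3. They lay at 7 of the 34 downstream signalling genes (20.6%), and the share of all genes was 11.4%. With gene ends alone, 0 of the 12 family genes with other symbols had a shared region, against 9.22% of all genes. The alternatives for the lists of other symbols and downstream genes were chosen after seeing the data. Leaving out either library gave 5 to 31 members, 1 to 13 ligand genes, 4 to 18 receptor genes, 2 to 11 family genes with other symbols and 12 to 33 downstream signalling genes. The upper values rest on the replicate 2 list alone. Of all protein-coding genes, 15.1% were counted from replicate 3 alone and 70.7% from replicate 2 alone. With reciprocal overlap of 50%, 4 members had a shared region (11.8%), against 13.7% of all genes, and Tnfrsf23 had none. The best replicate 2 score was the same for 30 of 34 members with 10 kb, 27 with 1 kb and 23 with no flank. No paired analysis was possible because the 2 libraries belong to 1 group. Depth per library was not used here, so a missing replicate 3 peak does not show that PU.1 was absent.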
